A study of Mus musculus with 6 samples.

Results

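The 4 genes described here, H2-K1, H2-D1, B2m and Tap1, carry the main steps of antigen presentation by MHC class I. They were taken as 4 fixed windows of mouse build mm39, each spanning a gene with about 8 kb on both sides, and every H3K27ac peak that overlapped a window was kept. This gave 9 of 25666 peaks in the Bmal1KO list, 8 of 24477 in the Mfp2KO list and 10 of 29276 in the WT list. Merged where they overlapped, the peaks formed 11 regions of 39711 on chromosomes 1 to 19 and X. The cells were RAW264.7, a macrophage-like line of BALB/c mouse origin, lacking Bmal1, lacking Mfp2 or wild type (titled naive). BMAL1 drives transcription in the circadian clock. MFP2, the product of Hsd17b4, is an enzyme of fatty acid oxidation in peroxisomes. The study concerns how BMAL1 and MFP2 bear on inflammation in macrophages. There was 1 ChIP and 1 input library a genotype, and the labels name no stimulus. Acetylation of lysine 27 of histone H3 marks active promoters and enhancers. With 1 ChIP library a genotype there is no replicate spread and no difference between genotypes was tested. Since the sources used here do not state whether a knockout was 1 clone or a pool, differences between clones and effects of a genotype cannot be told apart. The same holds for fewer acetylated cells and less acetylation per cell.

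MHC class I molecules show peptides from inside the cell to CD8+ T cells. Cytosolic proteins are cut by the proteasome, peptides enter the endoplasmic reticulum through the TAP transporter, and there they bind a heavy chain paired with β2-microglobulin. H2-K1 and H2-D1 encode classical heavy chains, B2m encodes the light chain they share, and Tap1 encodes a subunit of the transporter. Macrophages express this machinery at rest and raise it in response to interferons. Interferons act on these genes through interferon-stimulated elements and through the co-activator NLRC5 at a promoter module bound by RFX, CREB and NF-Y. NF-κB sites respond to other stimuli such as TNF.

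The promoters are shown because all 4 gene starts lay under acetylated peaks and because the heavy chain genes resemble each other in sequence. They are the 250 bases before the RefSeq start, 5′ to 3′ on the strand of the gene, in build GRCm38.p6. This build differs from that of the peaks, so these positions cannot be set against the mm39 positions below. Capitals mark matches on either strand to a κB motif (a stretch of 10 bases that opens with GGG, closes with CC and has TT at bases 6 and 7), an interferon-stimulated element (2 copies of GAAA with any 2 bases between them), a CACGTG E-box or an inverted CCAAT box (ATTGG). The first of 2 starts listed for H2-K1 was used. They lie at chr17:34000348-34000597 on the minus strand for H2-K1, and on the plus strand at chr17:35262844-35263093 for H2-D1, chr2:122147437-122147686 for B2m and chr17:34187306-34187555 for Tap1.
H2-K1: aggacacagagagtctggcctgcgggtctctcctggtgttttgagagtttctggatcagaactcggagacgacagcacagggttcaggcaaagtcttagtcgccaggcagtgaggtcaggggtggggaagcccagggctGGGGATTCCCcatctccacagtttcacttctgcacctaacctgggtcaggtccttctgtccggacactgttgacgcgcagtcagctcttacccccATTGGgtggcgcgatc
H2-D1: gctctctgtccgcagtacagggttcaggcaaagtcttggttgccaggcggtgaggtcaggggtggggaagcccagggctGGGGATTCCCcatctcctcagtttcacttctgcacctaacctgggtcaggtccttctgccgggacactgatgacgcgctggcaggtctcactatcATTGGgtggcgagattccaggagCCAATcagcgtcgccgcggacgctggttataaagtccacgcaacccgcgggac
B2m: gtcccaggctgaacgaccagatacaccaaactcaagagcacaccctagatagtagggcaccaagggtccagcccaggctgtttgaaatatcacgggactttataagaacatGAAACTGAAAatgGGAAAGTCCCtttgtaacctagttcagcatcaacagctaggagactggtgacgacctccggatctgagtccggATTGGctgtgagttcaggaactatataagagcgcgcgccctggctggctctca
Tap1: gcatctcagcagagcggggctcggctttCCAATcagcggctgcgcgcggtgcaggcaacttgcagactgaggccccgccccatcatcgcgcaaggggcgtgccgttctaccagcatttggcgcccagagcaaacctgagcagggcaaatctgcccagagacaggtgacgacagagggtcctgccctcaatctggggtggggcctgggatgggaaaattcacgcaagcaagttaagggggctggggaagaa

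The κB motif occurred in 3 of the 4 promoters, those of H2-K1, H2-D1 and B2m, against 4.004% of the 27025 promoters in the table. In H2-K1 and H2-D1 the match was the same GGGGATTCCC, 111 and 171 bases before the listed start, and in B2m it lay on the other strand, 126 bases before the start. A CCAAT box on either strand was in all 4, against 34.5% of all promoters. The interferon-stimulated element as spelled above matched in B2m only, as GAAACTGAAA next to its κB match, against 3.04% of promoters. Looser forms of this element were not searched for, so the other promoters may hold one. No CACGTG was in these windows, and 6.05% of promoters hold one. These are matches of letters and not measured binding sites. The H2-K1 and H2-D1 promoters were the closest pair, with 170 identical of 190 aligned bases (89.5%) and a run of 47 identical bases, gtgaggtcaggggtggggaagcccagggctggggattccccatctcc, that holds the κB match. The other 5 pairs were identical at 58.2% to 63.5% of aligned bases, with runs of at most 10 bases. Fragments were estimated at 234 bp in Bmal1KO, 216 bp in Mfp2KO and 236 bp in WT. Fragment length does not settle whether a read maps to several places, which depends on the read itself. Likeness of the gene bodies, where most of each start peak lies, was not compared. The sources used here do not state what was done with reads that map to several places. The heavy chain alleles of BALB/c also differ from those of the C57BL/6J reference, so values at H2-K1 and H2-D1 rest on reads that may be shared between paralogs or lost to mismatches, which was not tested.

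The ChIP libraries held 12.5 M tags in Bmal1KO, 15.8 M in Mfp2KO and 15.8 M in WT, and all tags below are scaled to 10 M tags of the library. The authors' headers put 37.4% of tags in peaks in Bmal1KO, 57.2% in Mfp2KO and 38.7% in WT. The whole genome was shifted as well. Over tiled windows of 22 kb with peaks in both lists, the median ratio to WT was 0.876 in Bmal1KO (log2 -0.19, 15899 windows) and 1.38 in Mfp2KO (log2 0.47, 15209 windows). Over single merged regions the median ratios were 0.843 in Bmal1KO (17595 regions) and 1.35 in Mfp2KO (16670 regions). Values called relative below are after subtraction of these medians. Intervals are 95% exact intervals and cover counting error only. Genes were not assigned to peaks elsewhere in the genome, since the annotation used here is of another build. Macrophage markers and the remaining genes of the pathway were therefore not analysed here.

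All 4 genes carried an H3K27ac peak over their start in every genotype, where the start was placed 8 kb inside the window and is approximate. The heavy chain genes had more tags at their starts in both knockouts than in WT, though at H2-D1 this did not hold over input. Tap1 had 3.97 times the WT tags at its start in Mfp2KO, while Bmal1KO, at 0.880 times (0.743 to 1.04), was not set apart from WT. At the B2m start Mfp2KO had 2.41 times the WT tags, and Bmal1KO was below WT, at 0.652 times. Of the 11 regions, 8 were called in all 3 lists, those at the 4 gene starts among them, and the other 3 were short, weak peaks behind B2m.

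**Figure D1:**
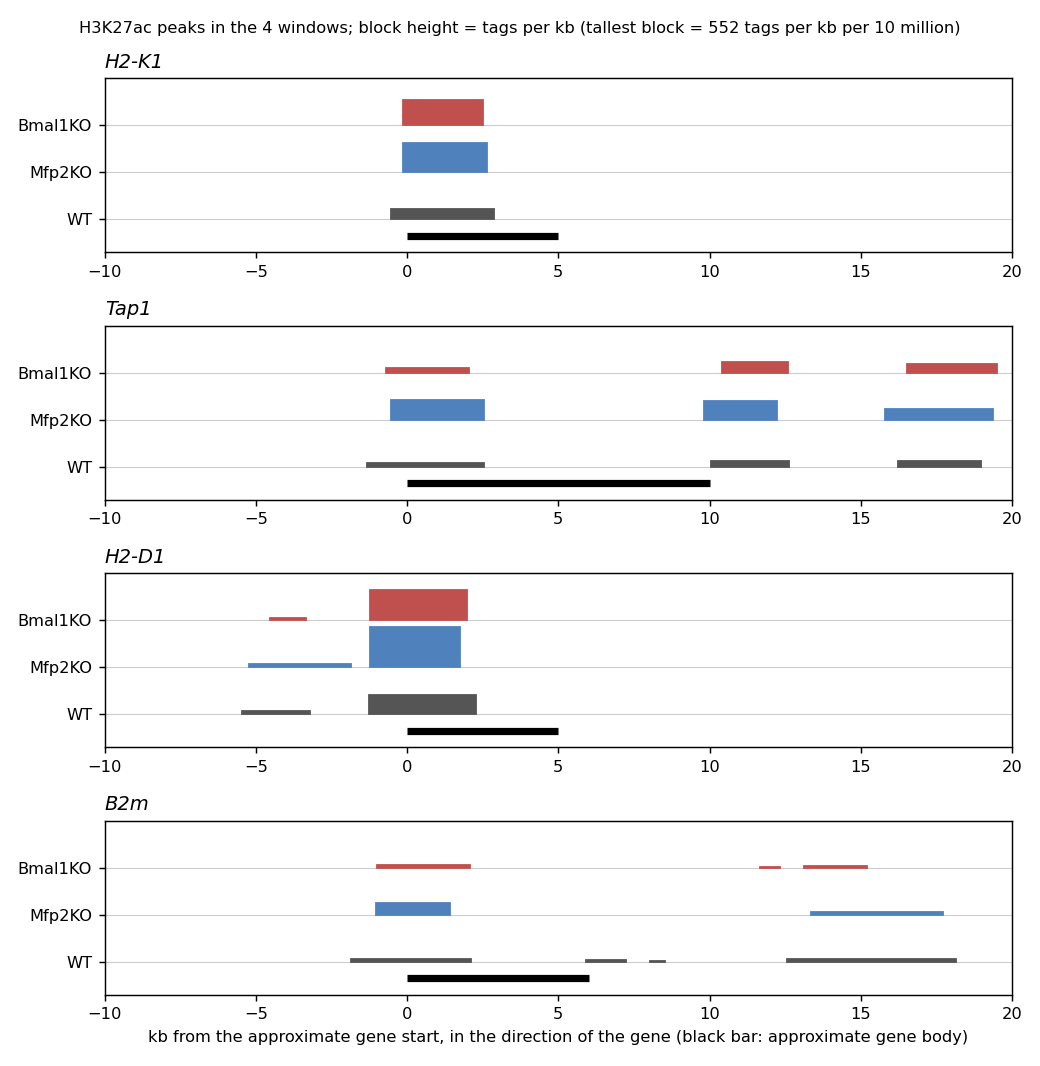
H3K27ac peaks overlapping each window in Bmal1KO, Mfp2KO and WT, drawn by distance in kb from the approximate gene start, with block height giving tags per kb per 10 M tags and the black bar the approximate gene body. Each gene start lies under a peak in all 3 rows, and the tallest blocks are those of H2-D1, at 552 tags per kb in Mfp2KO.

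H2-K1 had a single region in its window, on chromosome 17 (34217128-34220538), running from just before the start of the gene, which reads on the minus strand, into its body. It held 915 tags over 2649 bp in Bmal1KO, 1122 tags over 2794 bp in Mfp2KO and 511 tags over 3410 bp in WT. Both knockouts were thus above WT, with the tags packed into a shorter peak. The ratio to WT was 1.79 in Bmal1KO (1.64 to 1.96) and 2.19 in Mfp2KO (2.02 to 2.39). Relative to the median region, log2 ratios were 1.09 (0.96 to 1.22) and 0.70 (0.58 to 0.83), and 8.84% of regions in Bmal1KO and 26.9% in Mfp2KO had a higher ratio. Tag density was 345 per kb in Bmal1KO, 402 in Mfp2KO and 149.9 in WT, and within each list at least 96.2% of peaks were less dense. Upstream of the approximate start the peak reached 128 bp in Bmal1KO, 148 bp in Mfp2KO and 538 bp in WT.

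H2-D1 had the strongest start of the 4 genes in every genotype, by tags and, at 426, 552 and 264 per kb in Bmal1KO, Mfp2KO and WT, by density. By fold over input H2-D1 was the highest of the 4 in WT only, at 16.02, and the lowest in Mfp2KO, at 13.53. Its start region (chromosome 17, 35480729-35484266) held 1372 tags over 3223 bp in Bmal1KO, 1658 tags over 3002 bp in Mfp2KO and 932 tags over 3537 bp in WT. It ranked 93rd by tags in the Bmal1KO list, 196th in the Mfp2KO list and 310th in the WT list. By tags both knockouts were above WT, with ratios of 1.47 in Bmal1KO (1.37 to 1.58) and 1.78 in Mfp2KO (1.67 to 1.90). Divided by the input tags of each genotype, the ratios were 0.982 in Bmal1KO and 0.845 in Mfp2KO, with no interval for counting error computed. Relative log2 ratios were 0.80 in Bmal1KO (0.70 to 0.90) and 0.40 in Mfp2KO (0.31 to 0.49), and 17.0% and 36.9% of regions had a higher one, so in Mfp2KO the excess lay well within the range of all regions. A weaker region upstream of the gene (35476545-35480154) went its own way. It had 38.3 tags in Bmal1KO, 137.5 in Mfp2KO and 115 in WT. By tags only Bmal1KO stood low there, at 0.333 times WT (0.238 to 0.462) and a relative log2 ratio of -1.34 (-1.83 to -0.87). In Mfp2KO the ratio was 1.20 (0.980 to 1.47), over a longer peak of 3396 bp against 2227 bp in WT. By tags per kb both knockouts were below WT, at 0.623 times in Bmal1KO and 0.785 times in Mfp2KO. Divided by input tags the ratios were 0.711 in Bmal1KO and 0.631 in Mfp2KO, again with no interval computed.

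**Figure D2:**
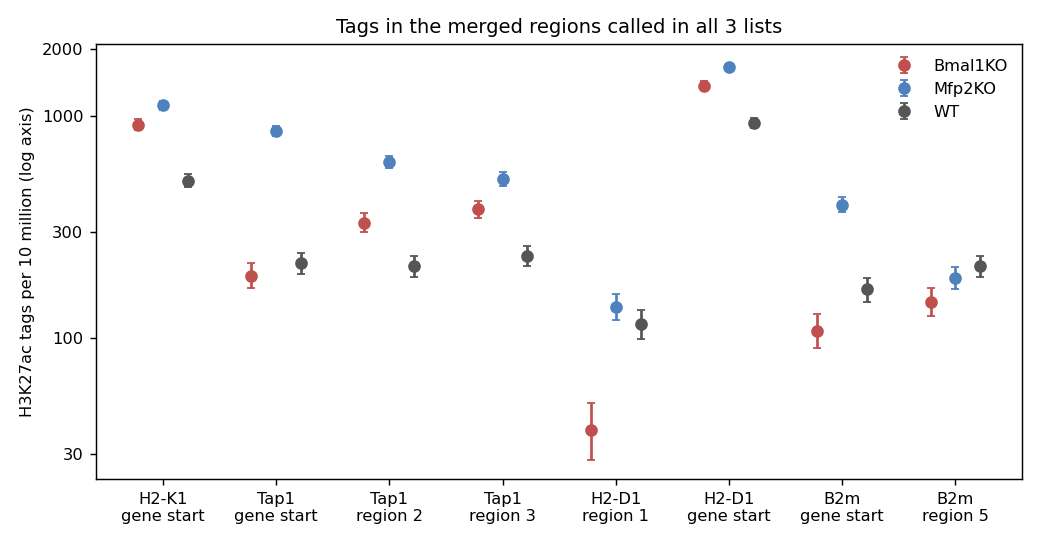
Tags per 10 M (log axis) in the 8 regions of the 4 windows that were called in all 3 lists, for Bmal1KO, Mfp2KO and WT, with 95% exact Poisson intervals for counting error. At the starts of H2-K1 and H2-D1 both knockouts lie above WT, while at the starts of Tap1 and B2m only Mfp2KO does.

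B2m, the light chain gene, had the weakest gene start of the 4 in every genotype, by tags and by tags per kb. By fold over input it was not the weakest. In Mfp2KO it was the highest of the 4, at 29.22. In Bmal1KO and WT it stood at 9.58 and 15.35, above Tap1 at 8.06 and 7.95. The region (chromosome 2, 121976147-121980096) held 108 tags over 3071 bp in Bmal1KO, 399 tags over 2424 bp in Mfp2KO and 165 tags over 3949 bp in WT. Bmal1KO was lowest and Mfp2KO highest, and none of the 3 counting intervals overlapped. The ratio to WT was 0.652 in Bmal1KO (0.525 to 0.805) and 2.41 in Mfp2KO (2.08 to 2.80). On the relative log2 scale this was -0.37 in Bmal1KO (-0.68 to -0.07), with 65.8% of regions higher, and 0.84 in Mfp2KO (0.63 to 1.05), with 22.9% of regions higher. The peak in Mfp2KO was the shortest and densest, at 165 tags per kb, against 35.1 in Bmal1KO and 41.9 in WT. Its density ratio of 3.93 to WT was exceeded by 7.71% of regions in Mfp2KO.

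Behind the B2m gene the lists differed in small peaks. WT alone had peaks of 26.3 tags (121983898-121985246) and 7.92 tags (121986013-121986513), and Bmal1KO alone had one of 9.97 tags (121989664-121990315). In the authors' lists these had 4.11-fold, 4.70-fold and 4.29-fold enrichment over input, where the limit was 4-fold. They account for the 2 of 10 WT peaks without a Bmal1KO peak, the 2 of 10 without an Mfp2KO peak and the 1 of 9 Bmal1KO peaks without a WT peak. Over the whole lists these shares were 38.9%, 41.4% and 23.6%. All 8 Mfp2KO peaks of the windows had a WT peak, and 25.4% of the whole Mfp2KO list had none. The last region of the window (121990547-121996157), on the side of the neighbouring gene Trim69, had 145 tags in Bmal1KO, 186 in Mfp2KO and 209.9 in WT. There both knockouts were at or below WT, with ratios of 0.692 in Bmal1KO (0.575 to 0.833) and 0.888 in Mfp2KO (0.757 to 1.04). The higher Mfp2KO tags of the window thus lay at the B2m start.

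Tap1 is flanked in RefSeq by Psmb9 before it and by Psmb8 and then Tap2 after it. Psmb9 and Psmb8 encode catalytic subunits of the immunoproteasome, which favours peptides that fit class I grooves, and Tap2 encodes the other subunit of the transporter. Its window held 3 regions on chromosome 17. The first (34404664-34408548) covered the start of Tap1, on the side of Psmb9, the second (34415814-34418621) began near its end, on the side of Psmb8, and the third (34421805-34425489) lay on the side of Tap2. The neighbours were placed by gene order alone, so whether the first region also covers the start of Psmb9 was not determined.

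At the Tap1 start, tags were 191 in Bmal1KO, 859.9 in Mfp2KO and 217 in WT. Mfp2KO stood apart from the other genotypes, whose counting intervals overlapped. The ratio to WT was 0.880 in Bmal1KO (0.743 to 1.04) and 3.97 in Mfp2KO (3.52 to 4.48), or 0.06 and 1.56 on the relative log2 scale, and 8.31% of regions in Mfp2KO had a higher ratio. In the second region tags were 331 in Bmal1KO, 623 in Mfp2KO and 210.2 in WT. In the third they were 379 in Bmal1KO, 520.3 in Mfp2KO and 235 in WT. Both knockouts exceeded WT in these, with ratios of 1.58 (1.36 to 1.82) and 1.61 (1.41 to 1.86) in Bmal1KO and of 2.96 (2.61 to 3.36) and 2.21 (1.96 to 2.51) in Mfp2KO. Relative log2 ratios were 0.90 and 0.94 in Bmal1KO and 1.14 and 0.71 in Mfp2KO. In the third region Bmal1KO was thus the higher on this scale, and 26.6% of regions in Mfp2KO had a higher ratio. By tags per kb the relative value of Mfp2KO there was 0.11, and over input 0.12. The excess in Mfp2KO was therefore greatest at the Tap1 start and smallest toward Tap2, and in Bmal1KO it was found in the regions behind the gene and not at the Tap1 start. The shape of the locus differed too. Density over the 3 regions in order was 69.2, 153 and 128 tags per kb in Bmal1KO, 279.6, 257 and 146 in Mfp2KO, and 55.8, 81.7 and 85.7 in WT. The start region was thus the densest of the 3 in Mfp2KO and the least dense in Bmal1KO and WT.

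Of the 8 regions shared with WT, 1 was more than 2-fold higher relative to the median in Bmal1KO (the H2-K1 start) and 1 more than 2-fold lower (upstream of H2-D1). Over all regions, 11% were higher and 16.3% lower by this measure, so these counts are near the background. In Mfp2KO 2 of 8 were more than 2-fold higher, the Tap1 start and the second region of its window, and 0 lower, against 18.7% and 25% of all regions. Called length was shorter than in WT in 7 of the 8 regions in Bmal1KO and 6 of 8 in Mfp2KO. The share of all regions that were shorter was not computed. Median peak width in the whole lists was 1421 bp in Bmal1KO, 1613 bp in Mfp2KO and 1707 bp in WT. Over the 4 windows called length came to 20.77 kb in Bmal1KO, 25.03 kb in Mfp2KO and 29.78 kb in WT. In the knockouts this was 69.7% and 84.1% of the WT length, where the whole lists had 69.9% and 69.3%.

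Summed over each window, tags in Bmal1KO, Mfp2KO and WT were 915, 1122 and 511 at H2-K1, 901, 2003 and 662 at Tap1, 1410.1, 1795 and 1047 at H2-D1, and 176, 585 and 409 at B2m. The log2 ratio relative to the median tiled window was 1.03 at H2-K1, 0.64 at Tap1, 0.62 at H2-D1 and -1.03 at B2m in Bmal1KO. In Mfp2KO it was 0.67 at H2-K1, 1.13 at Tap1, 0.31 at H2-D1 and 0.05 at B2m. Past 2-fold were H2-K1 (higher) and B2m (lower) in Bmal1KO, and Tap1 (higher) in Mfp2KO. For H2-K1 and B2m in Bmal1KO the counting interval, 0.90 to 1.16 and -1.26 to -0.81, spanned 2-fold. The H2-K1 value was under 2-fold with no centring (0.84), scaled to tags in peaks (0.89), with peaks of at least 6-fold enrichment (0.96), centred by decile of tags (0.78) and over input (0.45). The Tap1 value in Mfp2KO was under 2-fold by tags per kb (0.89), centred by decile (0.94) and over input (0.68). Of all tiled windows, 10.0% were more than 2-fold higher and 17.9% lower in Bmal1KO, and 17.0% higher and 23.5% lower in Mfp2KO. The low B2m value in Bmal1KO rested in part on the edge of the window, which takes in all of the last WT peak but only 58.2 of the 145 tags that Bmal1KO had in the same region. With whole regions it was -0.39. The H2-D1 value in Mfp2KO was -0.11 by tags per kb and -0.50 over input, and in Bmal1KO it was -0.081 over input. The median over the 4 genes was 0.63 in Bmal1KO and 0.49 in Mfp2KO, where the median tiled window is at 0. It only describes these genes, which are not replicates of one another. H2-K1, Tap1 and H2-D1 share a stretch of chromosome 17, and B2m was at -1.03 in Bmal1KO.

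**Figure D3:**
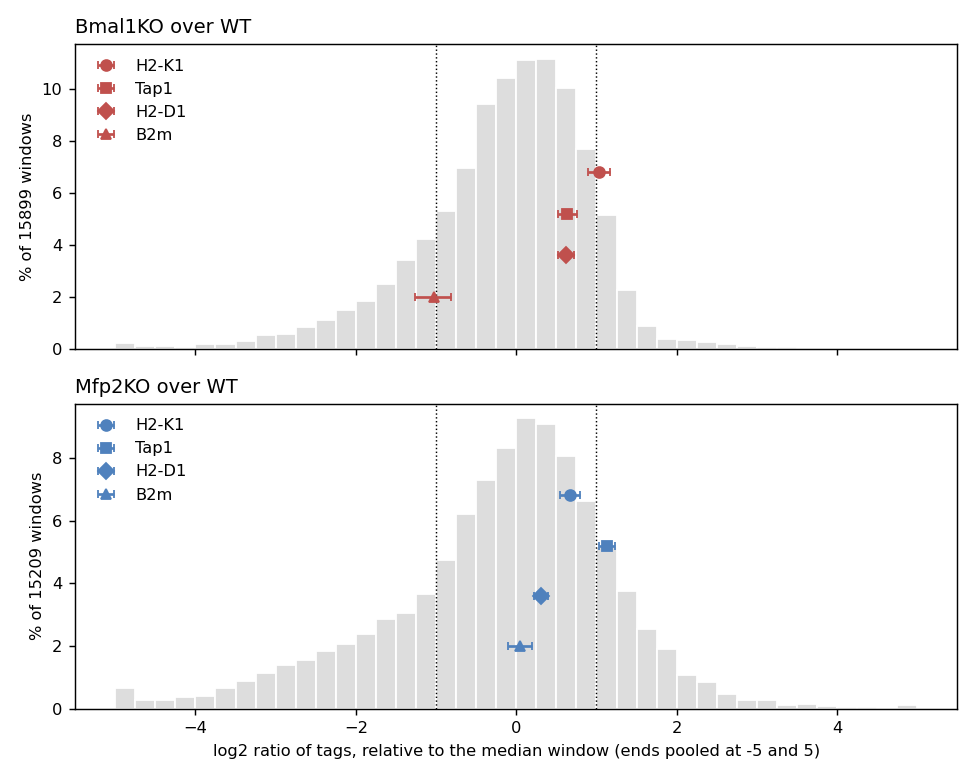
Log2 ratio of summed tags to WT, relative to the median window, for the 4 genes (symbols with 95% counting intervals, at arbitrary heights) over the distribution of all tiled windows of 22 kb (grey bars, percent of windows), with Bmal1KO above and Mfp2KO below. Dotted lines mark 2-fold, and all symbols lie within the body of the grey distributions.

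H2-K1, Tap1 and H2-D1 lie within 1.288 Mb of chromosome 17 (34207000-35495000), and the other acetylated regions of this span were also somewhat higher in the knockouts. Over 32 other regions shared by Bmal1KO and WT the median relative log2 ratio was 0.27 (quartiles -0.29 and 0.81). Of these, 6 were more than 2-fold higher and 0 lower, against 11% and 16.3% of all regions. Over 31 shared by Mfp2KO and WT the median was 0.48 (quartiles -0.10 and 1.03), with 9 higher and 4 lower, against 18.7% and 25% of all regions. The H2-K1 start in Bmal1KO and the Tap1 start in Mfp2KO lay above these quartiles, and the H2-D1 start lay within them in both knockouts. Also above them were the second region of the Tap1 window in both knockouts and the third in Bmal1KO. The region upstream of H2-D1 lay below them in both knockouts.

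Input per kb was higher in both knockouts than in WT at all 4 gene starts, also where ChIP tags were not. At H2-D1, input per kb of peak was 27.1 in Bmal1KO, 40.8 in Mfp2KO and 16.5 in WT, and at least 99.7% of peaks in each list had less. At H2-K1 it was 19.03 in Bmal1KO, 21.4 in Mfp2KO and 12.4 in WT. Tap1 had 8.57, 14.7 and 7.02 at its start in the same genotypes, and B2m 3.66, 5.63 and 2.73. The B2m values rest on 14.1, 17.5 and 16 deposited input tags, of which the Bmal1KO value was deposited scaled to the ChIP library. Counting error of the input was not computed. The order of the genotypes was the same as for ChIP density at H2-K1, H2-D1 and Tap1. At B2m it was not, since Bmal1KO was above WT in input and below WT in ChIP density, at 35.1 against 41.9 per kb. At the Tap1 start Bmal1KO had 1.22 times the input per kb of WT with 0.880 times its ChIP tags. Over all shared regions the median ratio of input per kb to WT was 0.974 in Bmal1KO and 1.37 in Mfp2KO. Relative to these medians, the input ratio at H2-D1 was 1.69 in Bmal1KO and 1.81 in Mfp2KO, with 91.6% of regions lower in each. At H2-K1 it was 1.57 and 1.26, with 88.7% and 69.3% of regions lower. At Tap1 it was 1.25 and 1.53, with 73.7% and 83.4% lower, and at B2m 1.38 and 1.51, with 81.2% and 82.6% lower. Over the other regions of the span on chromosome 17 the median of this relative input ratio was 1.04 in Bmal1KO and 1.06 in Mfp2KO.

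**Figure D4:**
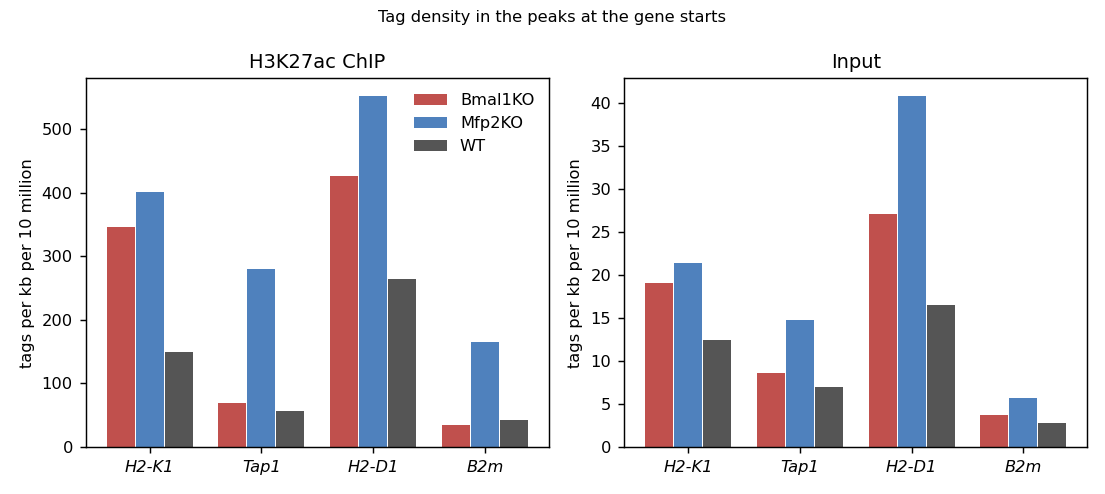
Tag density per kb of peak and per 10 M tags at the gene starts in the ChIP libraries (left) and the input libraries (right), for Bmal1KO, Mfp2KO and WT. Input is highest at H2-D1, at 40.8 per kb in Mfp2KO, and is above WT in both knockouts at all 4 starts.

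When ChIP tags were divided by input tags of the same genotype, a step added after the data were seen, the heavy chain genes differed. No interval for counting error was computed for these ratios, which also carry the counting error of the input. At the H2-D1 start the ratio to WT became 0.982 in Bmal1KO and 0.845 in Mfp2KO, or -0.17 and -0.47 relative to the median region. At the H2-K1 start it was 1.504 in Bmal1KO and 1.56 in Mfp2KO, or 0.45 and 0.41. Tap1 was at 1.02 in Bmal1KO and 2.39 in Mfp2KO, or -0.12 and 1.03. B2m was at 0.624 in Bmal1KO and 1.90 in Mfp2KO, or -0.83 and 0.70. By these values the higher tags of both knockouts remained at H2-K1 and not at H2-D1, and those of Mfp2KO remained at Tap1 and B2m. Whether 0.982 and 0.845 at H2-D1 differ from 1 was not tested. The B2m ratios rest on few input tags, at 17.5 in Mfp2KO, 16 in WT and a scaled 14.1 in Bmal1KO. The part of the input differences in the ChIP differences was not tested.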

How the data were processed

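H3K27ac ChIP and input were sequenced in 3 genotypes of RAW264.7 cells, and the 3 deposited peak lists, 1 per ChIP library and not pooled, were analysed. Peak calling was by HOMER findPeaks, per the file headers, in its histone mode with the genotype's own input as control, stitching windows of 500 bp into regions with at least 4-fold enrichment and a Poisson p-value of at most 1.00e-04 over input. HOMER 5.1 and build mm39 stand in the submitters' processing notes. Tags per peak were deposited as a signal per 10 M tags of a library. Input tags are a deposited signal as well, scaled here to 10 M tags of input. The deposited fold over input is a ratio, used only to describe or filter peaks within a list, as was the authors' score, and the deposited p-value was not used further. 

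Peaks overlapping each window by at least 1 bp were summed. Peaks of the 3 lists were merged where they overlapped. Log2 ratios of knockout over WT tags were set against the median of all tiled windows of 22 kb, or of all merged regions, with peaks in both lists. Exact conditional (Clopper-Pearson) intervals came from scipy 1.17.1. The ratios over tiled windows were tested on simulated lists that kept the WT peak bounds. Differences in called length and at window edges were thus not covered by that test. Gene starts were placed 8 kb inside each window, with the strand from RefSeq. Alignments used Biopython 1.88. The members, lists and comparisons were chosen with earlier results of these data known. The genes named were the 4 members. An annotation of another build gave names and gene order only, so other pathway genes and markers were left out. Alternatives varied the scaling, window, overlap and enrichment limit.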

Additional observations from a re-analysis of the deposited data

How the results depend on the processing

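Values are log2 ratios to WT relative to the median window, and the cause of each move was not tested unless given. With no centring, Bmal1KO was at 0.84 for H2-K1, 0.45 for Tap1 and 0.43 for H2-D1, and Mfp2KO at 1.13, 1.597 and 0.78, with 0.52 for B2m. The shift is the median that was subtracted. Scaled to tags in peaks, Bmal1KO was at 0.89, 0.50 and 0.48 for H2-K1, Tap1 and H2-D1, and H2-D1 in Mfp2KO at 0.22. By tags per kb, B2m was at -0.36 in Bmal1KO, and Mfp2KO at 0.89 for Tap1, -0.11 for H2-D1 and 0.53 for B2m. In proportion to overlap, Bmal1KO was at 0.48 for Tap1 and -0.65 for B2m, and Mfp2KO at 0.28 for B2m. In windows narrowed by 6 kb each side, Bmal1KO was at 0.48 for Tap1, 0.75 for H2-D1 and -0.64 for B2m, and Mfp2KO at 1.33, 0.48 and 0.59. With peaks of at least 6-fold enrichment H2-D1 was at 0.51 in Bmal1KO and 0.16 in Mfp2KO. Added after the data were seen, whole merged regions put B2m at -0.39 in Bmal1KO. Centring on windows in the same decile of tags, also added, gave 0.78, 0.39, 0.37 and -1.27 for H2-K1, Tap1, H2-D1 and B2m in Bmal1KO, and 0.52, 0.94 and 0.12 for H2-K1, Tap1 and H2-D1 in Mfp2KO. Divided by input tags, a further addition, the windows of H2-K1, Tap1, H2-D1 and B2m were at 0.45, 0.29, -0.081 and -0.51 in Bmal1KO and at 0.41, 0.68, -0.50 and 0.57 in Mfp2KO. The sign of H2-D1 thus depended on the input in both knockouts, and in Mfp2KO on called length too. H2-K1 was higher in both knockouts and Tap1 in Mfp2KO under all 9 alternatives, while H2-K1 in Bmal1KO and Tap1 in Mfp2KO were not past 2-fold under all of them.

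WT peaks without a Bmal1KO or an Mfp2KO peak numbered 1 of 8 each with at least 6-fold enrichment and 1 of 9 each with lists of equal length by tags, against 2 of 10. With an overlap of at least 50% of the WT peak they numbered 3 of 10 for Bmal1KO and 2 of 10 for Mfp2KO. Tiled windows past 2-fold numbered 4440 in Bmal1KO and 6151 in Mfp2KO. They were 2774 of 11489 and 3870 of 11071 with windows of 50 kb, and 8233 and 9262 at a threshold of 1.5-fold. With no centring, 937 of 4399 such windows were higher in Bmal1KO and 4621 of 7236 in Mfp2KO, against 1592 of 4440 and 2583 of 6151 with it. The ratio of called length stayed within 10% of its value under the alternatives tried. No paired analysis was possible because each genotype had 1 ChIP library.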
